A study of Mus musculus with 4 samples.

Results

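Histone variant genes that lie outside the large histone gene clusters were followed across 4 RNA sequencing libraries made from cultured tumour-initiating stem-like cells (TICs) of mouse liver. The set was chosen by name and held 9 of the 23359 rows of the table: H1f0, H1fx, H2afz, H2afv, H2afx, H2afy, H2afj, H3f3a and H3f3b. All 9 had a row, and all 9 had a mean of at least 1 FPKM (fragment numbers divided by transcript length in kilobases and by library size), the limit that left 8616 counted genes. The cells were cultured from liver tumours of C57BL/6 mice in medium with serum, EGF and dexamethasone, which all 4 cultures shared. One culture received both all-trans retinoic acid (ATRA, which activates the retinoic acid receptors) and suberoylanilide hydroxamic acid (SAHA, an inhibitor of histone deacetylases). One received SAHA alone at 0.5 µg/ml, one ATRA alone at 5 µg/ml, and one vehicle. The label of the combination repeats no dose, and the treatment protocol names 1 dose for each compound. The treated cultures were exposed for 16 hours, and the sources used here state no time for vehicle and no number of tumours or animals behind the cells.

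Each group had 1 library, so no value below has an error or a p-value. The mark for calling a gene was a difference of 1 in log2(FPKM + 1), which is 2-fold on that scale and understates changes of low genes. A fold, where one is given, divides one FPKM value by another. Every comparison with vehicle used the same vehicle library, and the 3 comparisons of the combination used the same combination library. As these are bulk cultures, fewer cells with a message and less message per cell cannot be told apart.

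Most histone protein is made from clustered genes that are switched on with DNA replication and whose messenger RNAs end in a stem-loop without a poly(A) tail. Replacement variants are encoded by single genes elsewhere, mostly with polyadenylated messenger RNAs, and can be placed in chromatin outside S phase by dedicated chaperones. Linker histone H1.0 is known to accumulate in cells that stop dividing and to respond to deacetylase inhibitors. H2A.Z marks promoters and enhancers, H2A.X is phosphorylated at DNA breaks, macroH2A is associated with silent chromatin, and H3.3 marks active genes and is also placed at telomeres.

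The 4 libraries were alike in the estimated number of fragments per FPKM but not in composition. By the smallest repeated step of the FPKM values, 1 FPKM over 1 kilobase stood for about 99.0 to 106 fragments, which put about 170 fragments behind the lowest value of any of the 9 genes (H1fx with vehicle) and about 35663 behind the highest (H1f0 with both compounds). The 10 highest rows took 46.4% of summed FPKM with both compounds, 59.5% with SAHA, 47.2% with ATRA and 46.9% with vehicle, and rows for small RNAs held 26.3% to 34.1%. The labelled tissue is liver, but the hepatocyte markers were near 0: none of 8 had a mean of 1 FPKM, their sum was 0.217 to 0.473 FPKM, and Alb, the albumin gene, was listed at 0.0162 FPKM with both compounds, 0 with SAHA, 0.00567 with ATRA and 0.0108 with vehicle. Of 8 mesenchymal markers 4 had a mean of 1 FPKM, with sums of 373 FPKM with both compounds, 329 with SAHA, 483 with ATRA and 622 with vehicle, nearly all of it Vim. Of 5 bile duct markers 3 did, with sums of 340 to 942 FPKM, nearly all of it Spp1. Macrophage and endothelial markers each had 1 gene at that level, with sums of at most 5.46 and 6.03 FPKM, and lymphocyte and erythroid markers had 0, with sums of at most 0.110 and 1.77 FPKM. Of 7 markers of liver tumour stem cells 4 had a mean of 1 FPKM, with sums of 23.0 FPKM with both compounds, 33.7 with SAHA, 65.4 with ATRA and 103 with vehicle. Cd44 was the largest part, at 21.0, 31.5, 42.2 and 61.8 FPKM in that order. Ly6a was at 0.352, 0.819, 9.36 and 28.2 FPKM, and Prom1, Nanog and Cd24a were near 0 in each library. The part of these differences in the results below was not tested.

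The linker histone genes H1f0 and H1fx are shown first with their promoters because they were the members called higher in both libraries that held SAHA. The H3.3 genes H3f3a and H3f3b are shown beside them because they encode the same protein and differed in direction. Each line gives the 250 bases before the RefSeq transcript start, 5′ to 3′ on the strand of the gene, on build GRCm38.p6 (mm10). Capitals mark matches to any of 7 motifs searched on both strands. These were the H1 box, written AAACACA, the CCAAT box, the GC box, written GGGCGG, and the TATA box, written TATAAA. Also searched were the E-box, written CACGTG, the cyclic AMP response element, written TGACGTCA, and an E2F-type site, written TTTGGCGC. The GC box and the other motifs were allowed to overlap.
H1f0, chr15:79027962-79028211, plus strand: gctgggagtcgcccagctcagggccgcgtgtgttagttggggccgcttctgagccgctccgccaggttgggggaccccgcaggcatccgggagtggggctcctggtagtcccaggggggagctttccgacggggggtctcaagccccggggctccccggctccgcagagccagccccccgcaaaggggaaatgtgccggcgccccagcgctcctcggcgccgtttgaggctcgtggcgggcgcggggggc
H1fx, chr6:87981483-87981732, minus strand: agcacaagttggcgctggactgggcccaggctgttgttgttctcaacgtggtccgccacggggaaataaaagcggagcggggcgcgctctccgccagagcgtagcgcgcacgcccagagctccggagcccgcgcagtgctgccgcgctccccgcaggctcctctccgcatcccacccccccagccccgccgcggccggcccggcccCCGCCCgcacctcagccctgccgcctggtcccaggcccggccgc
H3f3a, chr1:180813606-180813855, minus strand: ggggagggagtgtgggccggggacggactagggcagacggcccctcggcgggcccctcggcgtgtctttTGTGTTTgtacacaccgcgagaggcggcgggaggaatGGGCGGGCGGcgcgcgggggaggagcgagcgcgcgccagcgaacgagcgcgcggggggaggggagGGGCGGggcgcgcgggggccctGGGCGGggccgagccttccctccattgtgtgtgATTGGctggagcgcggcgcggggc
H3f3b, chr11:116024505-116024754, minus strand: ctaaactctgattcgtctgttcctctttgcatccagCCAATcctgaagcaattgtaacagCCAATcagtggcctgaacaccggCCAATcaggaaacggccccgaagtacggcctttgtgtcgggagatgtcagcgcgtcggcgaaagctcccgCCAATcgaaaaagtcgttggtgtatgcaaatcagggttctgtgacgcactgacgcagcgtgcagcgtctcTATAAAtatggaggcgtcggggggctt

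The H3.3 promoters differed in these letters. H3f3b had 4 CCAAT motifs, all on the gene's strand, and a TATAAA motif that begins 27 bases before the transcript start (position -27). H3f3a had 4 GC boxes on the gene's strand, of which 2 overlap by 2 bases (-144 to -139 and -140 to -135), 1 CCAAT motif on the other strand and 1 AAACACA motif on the other strand, and no TATAAA. The GC content of the window was 77.2% for H3f3a and 54.0% for H3f3b. H1fx held 1 GC box, on the other strand, and H1f0 held none of the 7 motifs. The median GC content over all promoters of the table was 52.4%. The gene starts differ between annotations: GENCODE places that of H1f0 at base 79028450, of H1fx at 87981637, of H3f3a at 180813943 and of H3f3b at 116027962, so each window printed depends on the choice of start. Among all 32851 promoters of the table, the same 250-base window held CCAAT in 33.8%, the GC box in 32.7%, TATAAA in 12.4%, AAACACA in 6.25%, CACGTG in 6.02%, TGACGTCA in 1.55% and TTTGGCGC in 0.417%. Over the 8 members with a promoter in the table (all but H2afx), CCAAT was found in 5 (H2afz, H2afv, H2afj, H3f3a and H3f3b), the GC box in 6 (H1fx, H2afz, H2afv, H2afy, H2afj and H3f3a), CACGTG in 1 (H2afz), and TGACGTCA and TTTGGCGC in 0.

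H1f0 encodes H1.0, the replacement linker histone that binds the DNA between nucleosomes (1 exon, chromosome 15, 79028212 to 79030500, plus strand, mm10). It was at 164 FPKM with both compounds, 126 with SAHA, 26.4 with ATRA and 30.2 with vehicle. The libraries with SAHA stood far above those without it. The fold was 5.43 for both compounds over vehicle, 4.18 for SAHA over vehicle and 6.21 for both over ATRA. With SAHA or both compounds it was the most abundant of the 9 genes, whereas with ATRA or vehicle it was the fourth.

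H1fx encodes H1X, a further single-copy linker histone (1 exon, chromosome 6, 87980421 to 87981482, minus strand). It was also higher in both libraries with SAHA, at a lower level, 8.53 FPKM with both compounds, 7.54 with SAHA, 1.59 with ATRA and 1.40 with vehicle. The fold was 6.08 for both compounds over vehicle, 5.37 for SAHA over vehicle and 5.38 for both over ATRA. Within a library, H1f0 over H1fx was 19.2 with both compounds, 16.7 with SAHA, 16.6 with ATRA and 21.5 with vehicle, so the pair kept similar proportions while both genes stood higher in the SAHA libraries. The transcript of H1fx overlaps that of the antisense gene Gm5577 over 213 bases in GENCODE, and the sources used here do not state the strand setting of the authors' counting. Gm5577 was at 0.0560 FPKM with both compounds, 0.122 with SAHA, 0.242 with ATRA and 0.174 with vehicle.

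**Figure D1:**
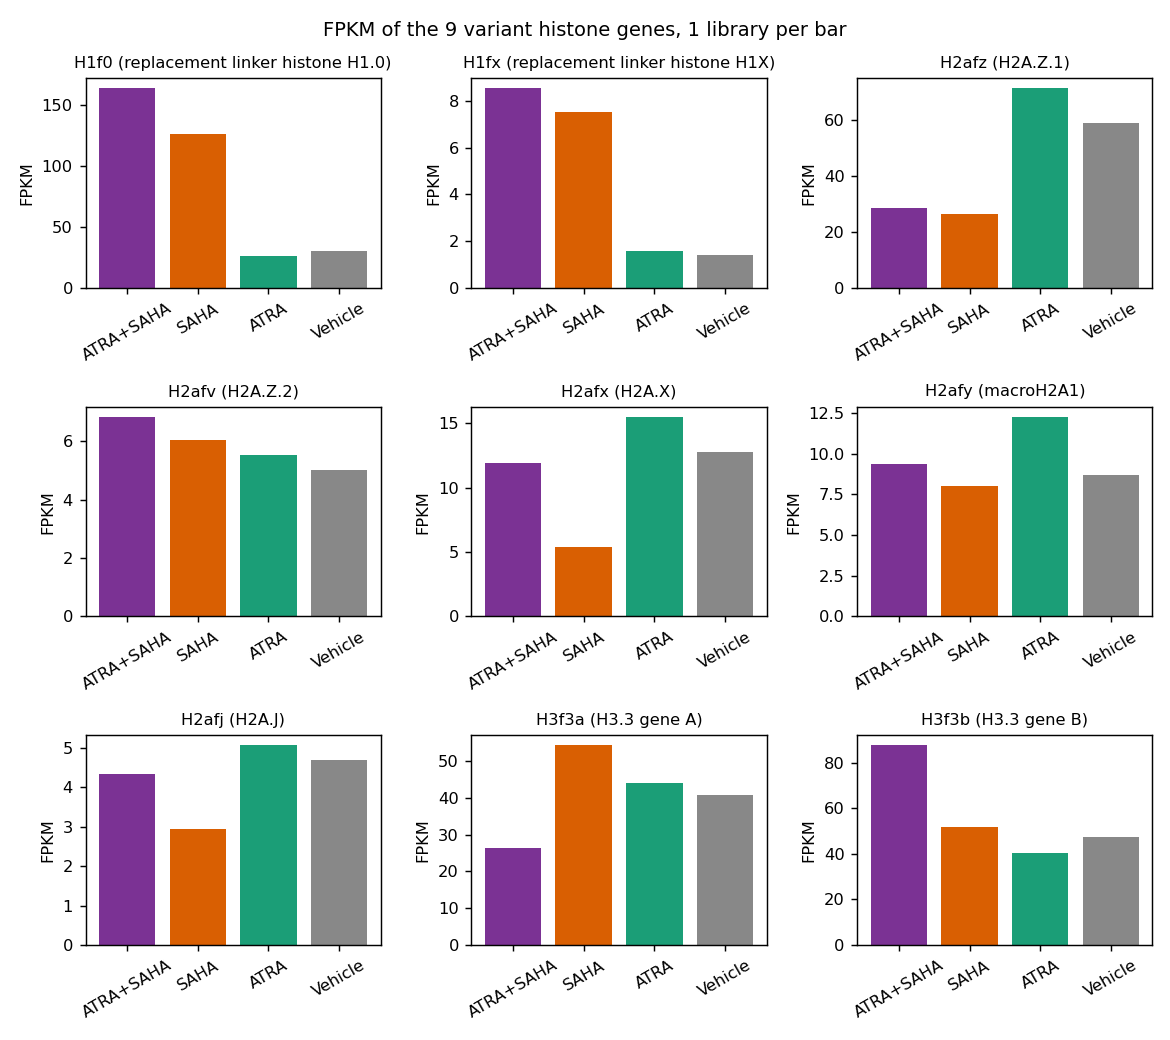
FPKM (y axis, each panel with its own linear scale from 0) of the 9 genes in the ATRA plus SAHA, SAHA, ATRA and vehicle libraries, 1 bar per library and no error bars. H1f0 and H1fx are several times taller in the libraries that held SAHA, H2afz is lower in those libraries, and H2afx is low in the SAHA library and near the vehicle level in the combination.

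The clustered linker histone genes did not follow this order. Hist1h1b, one of the replication-linked H1 genes, was at 255 FPKM with both compounds, 56.2 with SAHA, 263 with ATRA and 225 with vehicle. Hist1h1c was at 157 FPKM with both compounds, 37.5 with SAHA, 158 with ATRA and 157 with vehicle. Hist1h1d and Hist1h1e were the other genes of that list named by size, and both were called lower with SAHA. Of 6 clustered H1 genes, 6 were lower and 0 higher in SAHA against vehicle, with a median difference of -1.87 in log2(FPKM + 1), and 0 were called in the combination against vehicle, with a median of 0.22. Of all counted genes, 16.0% were lower and 7.88% higher in SAHA against vehicle. In the combination against vehicle those shares were 12.6% and 11.1%. The makeup of linker histone messages differed within libraries. H1f0 and H1fx together held 19.8% of all linker histone FPKM with both compounds, 45.2% with SAHA, 4.04% with ATRA and 4.81% with vehicle. In the SAHA library both sides differed from vehicle: the 2 variants summed to 134 FPKM against 31.6 with vehicle, and the 6 clustered genes to 162 FPKM against 626. With both compounds the variants summed to 173 FPKM and the clustered genes to 698.

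H2afz encodes H2A.Z.1, the main form of H2A.Z (5 exons, chromosome 3, 137864599 to 137866922, plus strand). It was at 28.5 FPKM with both compounds, 26.4 with SAHA, 71.4 with ATRA and 58.9 with vehicle, so both SAHA libraries stood below both libraries without it. The difference in log2(FPKM + 1) was -1.02 for both compounds against vehicle, -1.13 for SAHA against vehicle and -1.30 for both against ATRA. When libraries were rescaled to the same upper quartile, or without small RNAs and the 10 highest rows, the SAHA value was -0.95 or -0.68 and the call was lost, while the call for the combination held.

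H2afv encodes H2A.Z.2, which differs from H2A.Z.1 at a few residues (5 exons, chromosome 11, 6427226 to 6444443, minus strand). It was at 6.84 FPKM with both compounds, 6.06 with SAHA, 5.53 with ATRA and 5.01 with vehicle, and no comparison reached the mark. The genes of this pair therefore did not keep their proportions. H2afz over H2afv was 4.16 with both compounds, 4.36 with SAHA, 12.9 with ATRA and 11.8 with vehicle, a ratio that does not depend on the scaling between libraries. A part of H2afz matched a transcript of Tmcc1 at 99.9% identity over 682 bases, and the Tmcc1 row was at 0.569 to 0.652 FPKM in all 4 libraries.

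H2afx encodes H2A.X, whose messenger RNA is made both in a replication-linked stem-loop form and in a polyadenylated form (1 exon, chromosome 9, 44334715 to 44336073, plus strand). It was at 12.0 FPKM with both compounds, 5.42 with SAHA, 15.5 with ATRA and 12.7 with vehicle. The SAHA library was the low one, and the combination was close to vehicle. The difference was -1.10 for SAHA against vehicle and 1.01 for both compounds against SAHA, just past the mark. The SAHA call was lost under 3 of 7 alternative settings (range -1.22 to -0.69) and the call for adding ATRA under 4 of 7 (range 0.43 to 1.13), with the sign kept in all of them. Those that lost the SAHA call were centring on the median ratio (-0.98), the same upper quartile (-0.94) and scaling without small RNAs and the 10 highest rows (-0.69).

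Most clustered histone genes were also lowest in the SAHA library, by a wider gap. Their median in the combination against vehicle was 0.25, and H2afx, at -0.09, lay within their spread, beside Hist1h2ae and Hist1h2bg at -0.08. At the same FPKM total that median was 0.04 and H2afx stood at -0.30. Of 65 counted clustered genes, 59 were lower and 1 higher in SAHA against vehicle, with a median of -1.86, and 61 were higher and 0 lower in the combination against SAHA, with a median of 2.07. For all counted genes these medians were -0.12 and 0.14. Of all counted genes, 16.0% were lower and 7.88% higher in SAHA against vehicle. In the combination against SAHA, 3.04% were higher and 0.929% lower. The 1 higher clustered gene, Hist1h2ap, was listed at 93.1 FPKM with both compounds, 12.6 with SAHA and 0 with ATRA and vehicle. It has the same locus in the table as Hist1h2ao, so their split of reads is uncertain.

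H2afy encodes macroH2A1, which carries a large extra domain behind its histone part (9 exons, chromosome 13, 56073622 to 56135550, minus strand). It was at 9.38 FPKM with both compounds, 8.03 with SAHA, 12.3 with ATRA and 8.68 with vehicle. ATRA gave the highest value, 1.41 times vehicle, and no comparison reached the mark. The ATRA difference of 0.45 lay at the 94.6th percentile of counted genes, among which 90% lay between -0.43 and 0.47. H2afj encodes H2A.J, a variant known to build up in senescent cells (1 exon, chromosome 6, 136808248 to 136810074, plus strand). It was at 4.33 FPKM with both compounds, 2.94 with SAHA, 5.06 with ATRA and 4.69 with vehicle, low in the SAHA library but short of the mark at -0.53 against vehicle.

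Together the 5 H2A variants held 0.932% of all H2A FPKM with both compounds, 3.91% with SAHA, 1.58% with ATRA and 1.59% with vehicle. The SAHA library had the highest share and the lowest variant sum, 48.9 FPKM against 90.0 with vehicle, with a clustered sum of 1201 FPKM against 5565. In the combination the variants summed to 61.0 FPKM and the clustered genes to 6484.

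**Figure D2:**
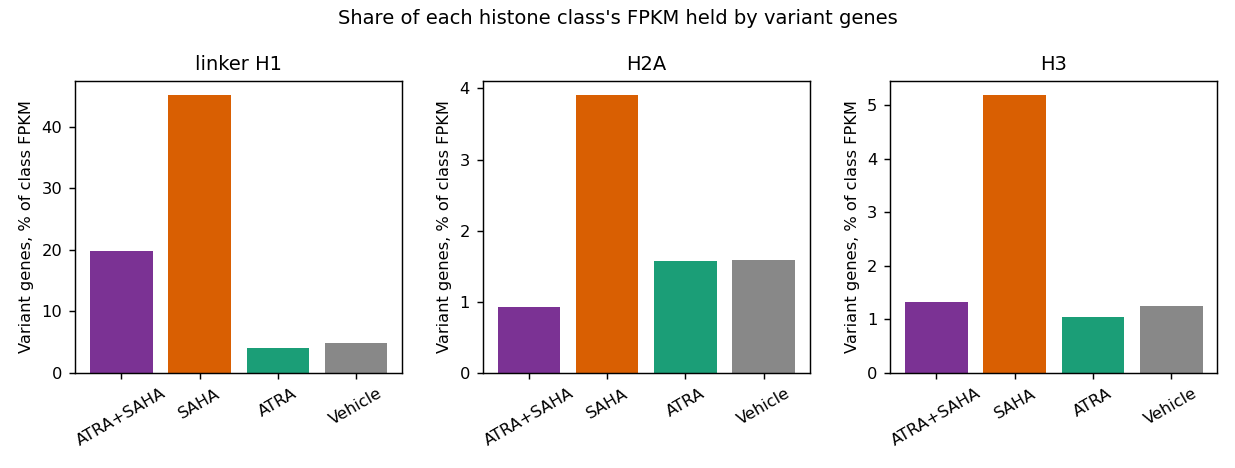
Share of the FPKM of each histone class held by variant genes (y axis, percent, each panel with its own scale from 0) in the 4 libraries, 1 bar per library. The SAHA library has the tallest bar in each class, 45.2% for linker H1, 3.91% for H2A and 5.19% for H3, and the combination stays above vehicle clearly for linker H1, at 19.8% against 4.81%.

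H3f3a and H3f3b encode the same H3.3 protein from different genes (H3f3a, 4 exons, chromosome 1, 180802568 to 180813603, minus strand, and H3f3b, 4 exons, chromosome 11, 116021961 to 116024504, minus strand). H3f3a was at 26.4 FPKM with both compounds, 54.2 with SAHA, 44.1 with ATRA and 40.9 with vehicle. H3f3b was at 87.7 FPKM with both compounds, 52.0 with SAHA, 40.3 with ATRA and 47.7 with vehicle. The combination was thus the lowest library for H3f3a and the highest for H3f3b.

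In the combination against SAHA, the difference was -1.01 for H3f3a, called lower, and 0.74 for H3f3b. In the combination against ATRA, it was -0.72 for H3f3a and 1.10 for H3f3b, called higher. The sum of the pair moved less: it was 114 FPKM with both compounds, 106 with SAHA, 84.5 with ATRA and 88.5 with vehicle. H3f3b over H3f3a was 3.33 with both compounds, 0.958 with SAHA, 0.914 with ATRA and 1.17 with vehicle, so only in the combination did H3f3b stand well above H3f3a among these 4 libraries.

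H3f3a has many near-identical copies in the genome. At 95% identity over at least 200 bases its transcript matched 17 other GENCODE genes, 16 of them pseudogenes. That number was 4 for H2afz, 2 for H3f3b, both pseudogenes, and 0 for H1f0. One of the 17 for H3f3a, the processed pseudogene Gm12657, has its own row (98.5% identity over 411 bases), on a locus of chromosome 4 that the table shares with Plaa. Gm12657 was at 17.2 FPKM with both compounds, 35.3 with SAHA, 26.4 with ATRA and 24.1 with vehicle, and its ratio to H3f3a was 0.651 with both compounds, 0.652 with SAHA, 0.599 with ATRA and 0.590 with vehicle. The sources used here do not state how the authors' counting divided reads between these copies, so the level of H3f3a itself is uncertain. Summed with Gm12657, H3f3a differed by -1.02 in the combination against SAHA and by -0.57 against vehicle.

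**Figure D3:**
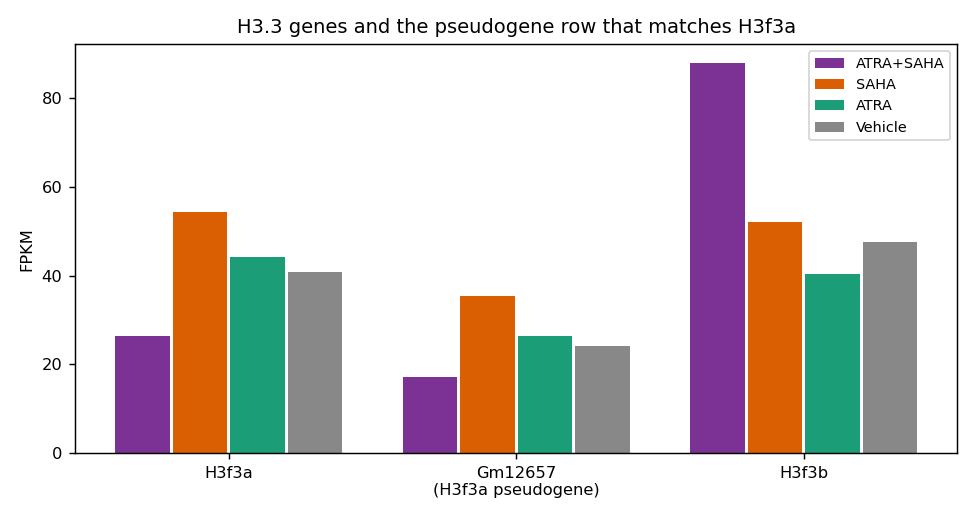
FPKM (y axis, linear from 0) of H3f3a, of Gm12657, the pseudogene row that matches it, and of H3f3b in the ATRA plus SAHA, SAHA, ATRA and vehicle libraries, 1 bar per library. The combination is the lowest bar for H3f3a (26.4) and Gm12657 (17.2) and the highest for H3f3b (87.7).

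H3f3a and H3f3b together held 1.33% of all H3 FPKM with both compounds, 5.19% with SAHA, 1.04% with ATRA and 1.25% with vehicle. The clustered H3 genes summed to 8479 FPKM with both compounds, 1940 with SAHA, 8048 with ATRA and 7007 with vehicle. The library in which they were low was again the one with SAHA alone. FPKM is divided by transcript length, and the libraries were made from RNA depleted of ribosomal RNA without a stated poly(A) step, so messages with and without a tail enter these shares. The lengths that the authors' counting divided by are not stated. These are thus shares of FPKM and may differ from shares of message numbers.

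In the combination against vehicle, 2 of the 9 genes were called higher (H1f0 and H1fx), against 11.1% of counted genes, and 1 lower (H2afz), against 12.6%. In SAHA against vehicle, 2 were higher (H1f0 and H1fx), against 7.88%, and 2 lower (H2afz and H2afx), against 16.0%. With ATRA against vehicle, 0 were higher, against 0.917%, and 0 lower, against 1.20%, with differences from -0.24 for H3f3b to 0.45 for H2afy. Against SAHA, the combination had 1 higher (H2afx), against 3.04%, and 1 lower (H3f3a), against 0.929%. Against ATRA, the combination had 3 higher (H1f0, H1fx and H3f3b), against 10.5%, and 1 lower (H2afz), against 11.9%. With 9 genes these shares are coarse, and neither the higher nor the lower counts in the comparisons with vehicle are far from the background. The median difference of the 9 genes was 0.10 in the combination against vehicle, 0.12 in SAHA against vehicle and 0.11 in ATRA against vehicle, beside 0.04, -0.12 and -0.00055 for all counted genes.

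**Figure D4:**
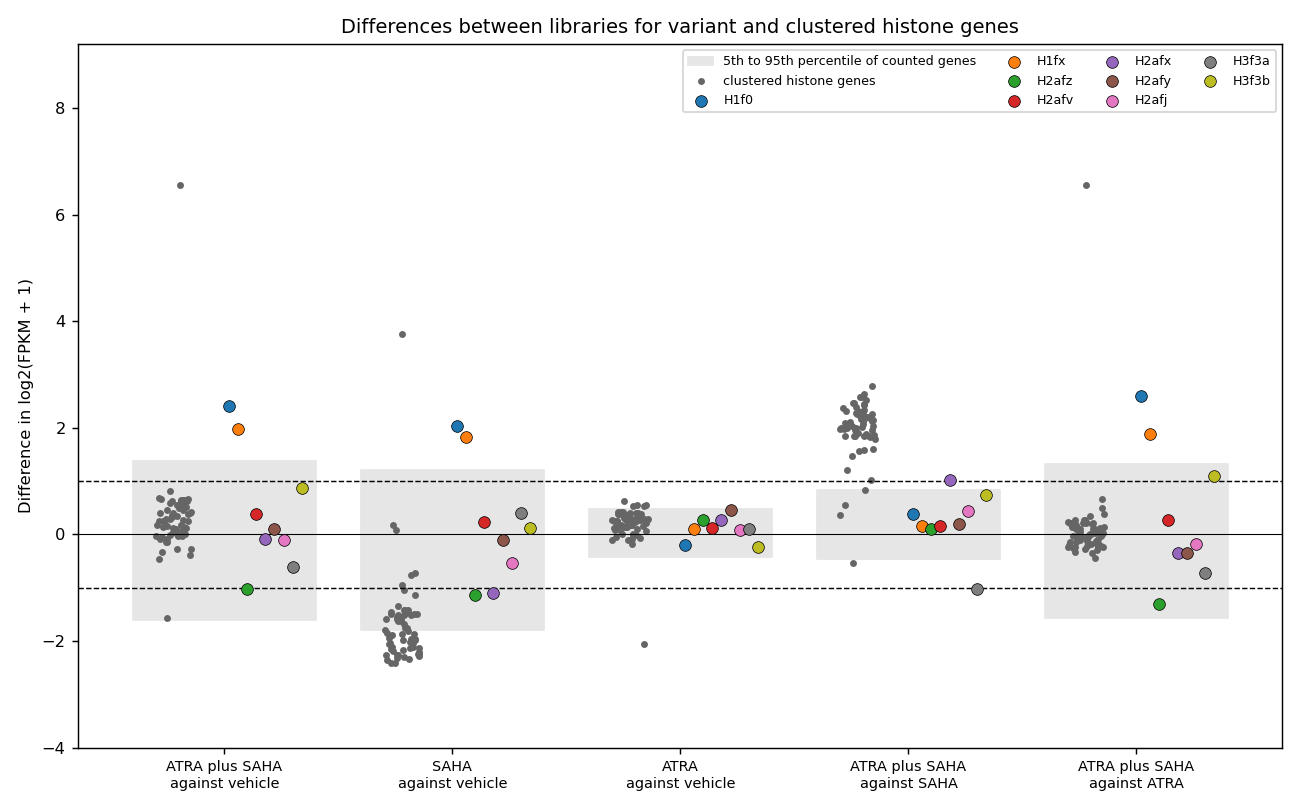
Difference in log2(FPKM + 1) (y axis) for the 9 genes (coloured points) and the 65 counted clustered histone genes (dark grey points) in the 5 comparisons (x axis), with the band from the 5th to the 95th percentile of counted genes in light grey and dashed lines at 1 and -1. H1f0 and H1fx lie above the band in the 3 comparisons of a SAHA library with a library without it, and most clustered genes lie below -1 in SAHA against vehicle and above 1 in the combination against SAHA.

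Whether the compounds together did more or less than the sum of each alone was read in log2(FPKM + 1). On that scale, differences that add stand for ratios of FPKM + 1 that multiply. The departure from additivity was the difference between the combination and SAHA minus the difference between ATRA and vehicle. H3f3a stood at -1.12, the 1 member past -1, against 1.73% of counted genes. H3f3b stood at 0.98, H2afx at 0.75 and H1f0 at 0.56, and 0 members passed 1, against 4.69% of counted genes. The other 5 lay between -0.25 (H2afy) and 0.34 (H2afj). These values depended on the scaling between libraries. Without small RNAs and the 10 highest rows in the scaling, H3f3a stood at -1.61, H3f3b at 0.49, H2afx at 0.32 and H1f0 at 0.06. H3f3a stayed past -1 in the 7 alternatives run, and H1fx and H2afv, near 0 as deposited, changed sign in 4. The median of all counted genes was 0.15, and 62 of 65 clustered histone genes passed 1, with a median of 1.88. All 4 libraries enter each of these values once.

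Genes that handle variant histones were then described from lists of known factors, 1 library per group as above. H3.3 is placed by HIRA with its partners and by ATRX with DAXX. The list of genes for this also held Dek and Sp100, which are in neither complex. Of 7 counted genes on that list of 9, 3 were lower and 0 higher in the combination against vehicle, with a median of -0.76, and 4 were lower and 0 higher in SAHA against vehicle, with a median of -1.05. Among all counted genes 12.6% were lower and 11.1% higher in the combination, and 16.0% lower and 7.88% higher with SAHA. The list was split by sign, with 3 of the 7 above 0 in each of these comparisons. Both medians depend on Dek and Sp100. Without them the middle gene in each comparison was Asf1a, which was above 0. Cabin1, which encodes a partner of HIRA, was at 5.29 FPKM with both compounds, 3.86 with SAHA, 1.72 with ATRA and 2.32 with vehicle, and was called higher in the combination against ATRA. Ubn1, of the same complex, differed by 0.57 in the combination and 0.55 in SAHA against vehicle, and Asf1a, which hands H3-H4 to HIRA, by 0.31 and 0.33. Those 3 are among the 7 counted genes of the list. They are named here outside the naming rule given below, after their values were seen. The next 4 were called lower in SAHA against vehicle. Atrx, the remodelling enzyme, was at 1.35 FPKM with both compounds, 1.78 with SAHA, 4.06 with ATRA and 5.00 with vehicle. Daxx, the H3.3 chaperone of that complex, was at 2.53 FPKM with both compounds, 1.90 with SAHA, 2.57 with ATRA and 4.99 with vehicle. Dek, a chromatin protein and H3.3 chaperone, was at 2.43 FPKM with both compounds, 3.13 with SAHA, 8.29 with ATRA and 10.1 with vehicle. Sp100, a nuclear body protein and interferon-responsive gene, was at 0.104 FPKM with both compounds, 0.0951 with SAHA, 2.50 with ATRA and 6.07 with vehicle, and was the 1 gene of the list called lower with ATRA.

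For the machinery that exchanges H2A.Z, the same shares of all counted genes apply. Of 20 counted genes on a list of 25, 1 was higher and 1 lower in the combination against vehicle, with a median of 0.02, and 0 were higher and 1 lower in SAHA against vehicle, with a median of -0.11. Ruvbl2, an ATPase shared by the SRCAP, p400 and INO80 complexes, was at 25.6 FPKM with both compounds, 12.2 with SAHA, 10.1 with ATRA and 7.92 with vehicle. Ino80c, an INO80 subunit gene, was at 0.482 FPKM with both compounds, 0.845 with SAHA, 2.27 with ATRA and 2.88 with vehicle.

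General and replication-coupled chaperones were mixed, with called shares near those of all counted genes given above. Of 21 counted genes on a list of 22, 2 were higher and 3 lower in the combination against vehicle, with a median of -0.11, and 2 were higher and 5 lower in SAHA against vehicle, with a median of -0.30. Anp32b, an acidic nuclear protein that binds histones, was at 2.87 FPKM with both compounds, 2.27 with SAHA, 24.2 with ATRA and 24.0 with vehicle. Ptma, the gene of the H1-binding protein prothymosin alpha, was at 66.5 FPKM with both compounds, 71.6 with SAHA, 243 with ATRA and 216 with vehicle. Both genes were thus low in the libraries that held SAHA. Set, a histone chaperone that also blocks histone acetylation, was at 10.4 FPKM with both compounds, 7.26 with SAHA, 20.1 with ATRA and 22.6 with vehicle. Spty2d1, which encodes a homologue of a yeast H3-H4 chaperone, was at 8.24 FPKM with both compounds, 10.2 with SAHA, 3.42 with ATRA and 2.47 with vehicle. Asf1b, an H3-H4 chaperone of dividing cells, was at 6.77 FPKM with both compounds, 3.26 with SAHA, 3.03 with ATRA and 2.08 with vehicle, and was called higher in the combination against vehicle. Tspyl1, a nucleosome assembly family gene, was at 8.06 FPKM with both compounds, 11.3 with SAHA, 6.58 with ATRA and 4.86 with vehicle. Anp32a, of the Anp32b family, was at 1.95 FPKM with both compounds, 1.29 with SAHA, 3.94 with ATRA and 4.22 with vehicle. In SAHA against vehicle the first was called higher and the second lower.

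Of 10 counted genes of H2A.X signalling on a list of 12, 0 were called in the combination against vehicle, with a median of 0.09, and 1 was lower in SAHA against vehicle, with a median of 0.00168. That 1 was Baz1b, the kinase gene that phosphorylates a tyrosine of H2A.X, at 4.03 FPKM with both compounds, 3.31 with SAHA, 8.41 with ATRA and 9.04 with vehicle. Of 10 counted genes that process clustered histone messages on a list of 12, 0 were called in either comparison, with medians of -0.01 and -0.25. Of all counted genes, 11.1% were higher and 12.6% lower in the combination, and 7.88% higher and 16.0% lower with SAHA. With 10 genes per list, the counts of both lists are too coarse to be set apart from these shares. The clustered messages themselves were low with SAHA, as given above.

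**Figure D5:**
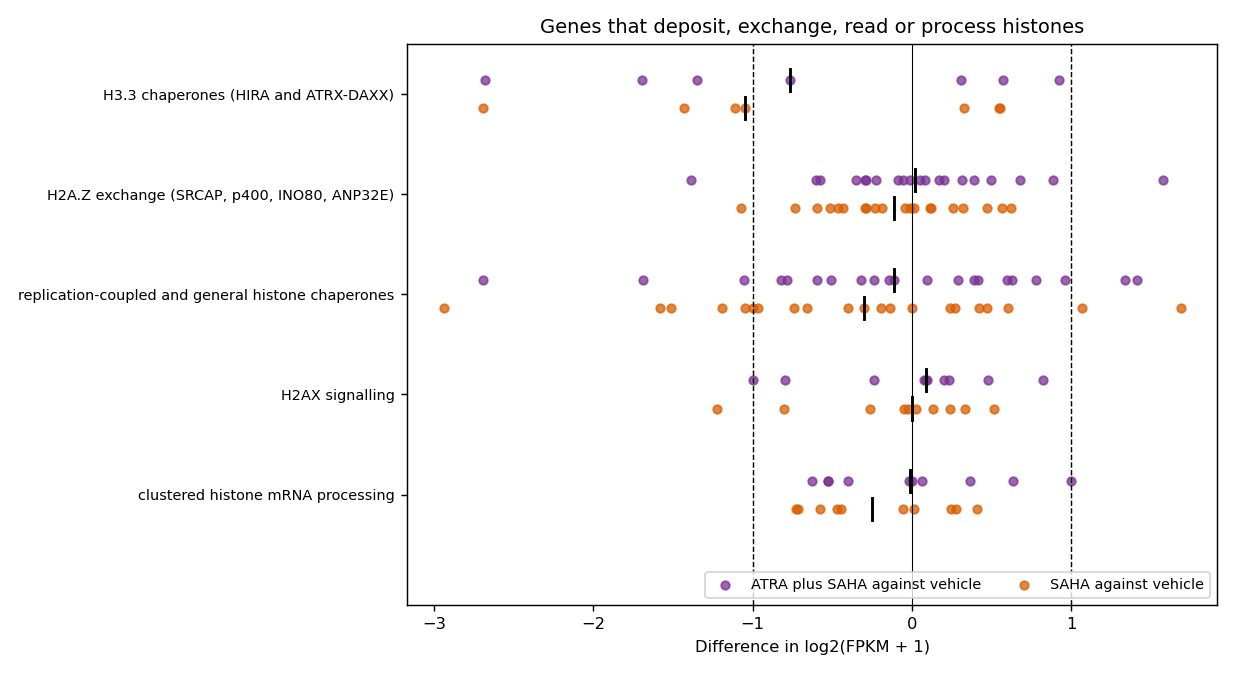
Difference in log2(FPKM + 1) (x axis) for the counted genes of 5 lists (rows), with points for ATRA plus SAHA against vehicle above those for SAHA against vehicle, black ticks at the list medians and dashed lines at 1 and -1. The H3.3 chaperone medians lie at -0.76 and -1.05 with Dek and Sp100 on the list, and would be above 0 without them. The other lists of 10 or more genes have medians between -0.30 and 0.09.

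Of 8 further histone genes outside the clusters, 6 had a row and 2 were counted. Cenpa, the centromeric H3 variant, was at 2.35 FPKM with both compounds, 1.44 with SAHA, 5.78 with ATRA and 4.56 with vehicle, and was called lower in SAHA against vehicle. H2afy2, which encodes macroH2A2, was at 0.396 FPKM with both compounds, 0.500 with SAHA, 2.11 with ATRA and 1.95 with vehicle, and was called lower in the combination against vehicle. Both genes were also called lower in the combination against ATRA, Cenpa at -1.02 and H2afy2 at -1.16. Of all counted genes, 16.0% were lower in SAHA and 12.6% in the combination against vehicle, and 11.9% in the combination against ATRA. The germline variants H1foo, H1fnt, Hils1 and H2afb1 had no value above 0.0383 FPKM in any library.

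Finally, the genes whose values ran most like each member were listed by the Euclidean distance over the 3 log2 differences to vehicle, among 2671 genes. These were the rows whose mean reached 5 FPKM, without the members, small RNAs, pseudogenes and rows with predicted-gene or date symbols. All 4 libraries enter the distance and vehicle enters it 3 times. The nearest to H1f0 were Paf1 (distance 0.19), Pigf (0.26) and Tm2d2 (0.30), and 1 gene lay within 0.25. Paf1, which encodes a subunit of an RNA polymerase II elongation complex, was at 22.6 FPKM with both compounds, 18.2 with SAHA, 2.59 with ATRA and 3.21 with vehicle. The nearest to H1fx were Cox19 (0.11), Ttc1 (0.13) and Tcf19 (0.16), and those to H2afz were Stmn1 (0.07), Ranbp1 (0.13) and Tmem176a (0.14). For H2afx they were Chchd1 (0.11), Lsm3 (0.14) and Hint1 (0.17), and for H3f3b Bloc1s2a (0.14), Rnf14 (0.14) and Pak1ip1 (0.18). H3f3a had 0 genes within 0.25, and its nearest were the metallothionein gene Mt2 (0.29), Cox7b (0.34) and Sertad1 (0.35). The members with small differences had many neighbours: 136 genes lay within 0.25 of H2afv (nearest Snx6, Puf60 and Ppp2r5c), 87 of H2afj (Mrto4, Dnmt1 and Rbm15b) and 32 of H2afy (Atp5e, Rwdd1 and Sil1).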

How the data were processed

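Per the labels' protocols, ribosomal RNA was removed from total RNA before sequencing. The submitters' processing notes name Trimmomatic 0.32, Cuffdiff and mm10. The sources used here state no aligner, annotation, strand setting or scaling between libraries. Per the file headers, the authors deposited FPKM, 1 column per library.

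Differences were computed on log2(FPKM + 1). The 8616 rows whose mean over the libraries reached 1 FPKM were counted, 151 of them small RNAs, and called at a difference of 1. No test was possible with 1 library in each group. Alternatives were a pseudocount of 0.1, no filter, a mean of at least 5 FPKM and 4 scalings between libraries. Fragment numbers are estimates from the smallest step of FPKM times transcript length and give no counting interval.

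Members, lists and motifs were chosen with earlier results of these data known. Genes were named by a written rule: all members, up to 4 leading genes of each list and direction in either comparison with vehicle that held SAHA, and the 3 nearest genes of each member. One of the lists is not reported here. The departure from additivity and the sum with Gm12657 were added with values known, as were the alternatives for the first. Promoters are from RefSeq (GRCm38.p6), and coordinates are those of the table, with starts counted from 1. Near-identical transcripts were found with BLAST+ 2.17.0 in GENCODE M21. Python 3.11.15 and pandas 2.3.3 were used.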

Additional observations from a re-analysis of the deposited data

Results flagged for a closer look

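H3f3a was set apart because, in the values as deposited, each compound went with a higher value alone and with a lower value beside the other compound. With SAHA added it stood at -0.72 on a background of ATRA and at 0.40 on a background of vehicle, and with ATRA added at -1.01 on a background of SAHA and at 0.11 on a background of vehicle. The small value for ATRA on vehicle changed sign under 2 of 8 alternatives, to -0.08 at the same FPKM total and -0.06 without small RNAs and the 10 highest rows, while that for SAHA on vehicle stayed above 0 in all 8. The difference between the effects was -1.12 in log2(FPKM + 1). It was not tested, since each of the 4 values is 1 library, and the row Gm12657, which shares sequence with H3f3a, moved with it.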

How the results depend on the processing

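With 1 library per group the spread between cultures is unknown, and no alternative replaces it. The calls for H1f0 and H1fx in the 3 comparisons of a SAHA library with a library without it held under all alternatives that kept the gene (a mean of at least 5 FPKM left out H1fx and H2afj), from 2.03 to 2.63 for H1f0 and from 1.81 to 2.52 for H1fx. Those for H2afz in the combination, for H3f3a in the combination against SAHA and for H3f3b in the combination against ATRA also held. In SAHA against vehicle 4 members were called, and 2 after scaling to the same upper quartile or without small RNAs and the 10 highest rows. In the combination against SAHA 2 were called, and 1 under each of the 4 scalings. Leaving out small RNAs and the 10 highest rows put the median ratio of SAHA to vehicle over counted genes at 0.22, where the values as deposited gave -0.12, and scaling to the same FPKM total put that of ATRA at -0.17, where they gave -0.00055. Of all calls in SAHA against vehicle, 679 higher and 1381 lower, higher ones were 33.0%, and 43.2% after centring, 44.7% at the same upper quartile and 62.3% without small RNAs and the 10 highest rows. In the combination against SAHA they were 76.6%, and 61.7% after centring, 57.4% at the same upper quartile, 51.9% at the same FPKM total and 23.0% without small RNAs and the 10 highest rows. In the combination against vehicle they were 46.7%, and 35.2% at the same FPKM total and 34.3% without small RNAs and the 10 highest rows. In ATRA against vehicle they were 43.4%, and 31.9% at the same FPKM total. A pseudocount of 0.1 gave 675 calls in the combination against SAHA in place of 342, and 2933 in place of 1930 against ATRA. Against vehicle it gave 3038 in place of 2043 for the combination, 3045 in place of 2060 for SAHA and 273 in place of 182 for ATRA. The same FPKM total gave 2750, 2839 and 248 in those 3 comparisons with vehicle. For the combination it gave 497 against SAHA and 2648 against ATRA. A mean of at least 5 FPKM left 2958 genes, with 911 calls in place of 2043 for the combination and 933 in place of 2060 for SAHA, 66 in place of 182 for ATRA against vehicle, and 205 in place of 342 and 854 in place of 1930 for the combination against SAHA and against ATRA. Without small RNAs and the 10 highest rows in the scaling, the combination against SAHA had 539. Departures from additivity past the mark were 404 higher and 149 lower, and 284 and 213 after centring, 283 and 229 at the same upper quartile, 574 and 260 at the same FPKM total, 215 and 425 without small RNAs and the 10 highest rows, 737 and 275 with a pseudocount of 0.1, and 209 and 68 at a mean of at least 5 FPKM. The cause was not tested. Class shares changed by less than 1.5 times when rows on shared loci or low rows were left out. No paired analysis was possible because each group has 1 library.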

Other observations

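A row named H2afy3, chosen after its values were seen, was at 0.595 FPKM with both compounds, 0.837 with SAHA, 2.91 with ATRA and 2.53 with vehicle, on chromosome 15 from 62037987 to 62250975.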
